A study of Arabidopsis thaliana with 6 samples.

Results

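The 88 plastid-encoded genes described here are all the genes in the expression table whose identifier begins with ATCG, the prefix for the chloroplast genome, of 27372 genes in all. No measured value was used to choose them. All are protein-coding, and the ribosomal and transfer RNA genes of the plastid were not analysed here. The RNA came from whole seedlings of *Arabidopsis thaliana*, either wild type Col-0 or *fer-4*, a single mutant line of the same background in which the receptor-like kinase gene *FERONIA* (*FER*) is disrupted. Both genotypes were grown on MS-agar for 7 days in long days under the same light, which the labels write as 154 mmol per square metre per second and the study's methods in μmol, with no further treatment, and were harvested at zeitgeber time 3, in 3 libraries per genotype. The study calls them biological replicates, and the labels do not say whether they came from separate growths. Levels are FPKM, in which fragments are divided by transcript length and library size. Genes can thus be set side by side per length, except the shortest, whose FPKM is not interpretable here. Rankings of plastid genes below are of FPKM in these libraries. They need not be rankings of mRNA amount, since the RNA selection is not given. *FER* mRNA was at 56.5, 62.6 and 64.6 FPKM in the Col-0 libraries and at 0.0905, 0.0270 and 0.0438 FPKM in the *fer-4* libraries. For the plastid genes *fer-4* replicate 1 stood apart most, with 32 of 66 tested members at least 1.5 times above or below the mean of the other *fer-4* libraries, and calls that change without it are given below.

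The plastid genome is a small circular chromosome inherited from the cyanobacterial ancestor of the chloroplast. It encodes core subunits of both photosystems, the cytochrome b6f complex, the ATP synthase and the NADH dehydrogenase-like (NDH) complex, the large subunit of Rubisco, and part of the machinery that reads it, while the remaining subunits of the same complexes are encoded in the nucleus. Its genes are transcribed in long units that hold several genes, which are cut and spliced afterwards, by a plastid-encoded RNA polymerase of bacterial type (the products of *rpoA*, *rpoB*, *rpoC1* and *rpoC2*, with sigma factors from the nucleus) and by a nuclear-encoded polymerase of phage type. Mature plastid mRNAs mostly lack a long poly(A) tail. The sources used here do not say whether the libraries were made from poly(A)-selected or rRNA-depleted RNA, and levels in this type of data depend on that choice.

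Positions are those of the plastid genome in TAIR10, 154478 bases long, read from the RefSeq copy of the same sequence. Of 78 members with the same end in both, 73 start 1 base lower in the deposited table, so starts were raised by 1. Some neighbouring plastid genes overlap, and the deposited table gives such a pair 1 common locus. The overlaps of 4 pairs are shown here because reads within them, from a transcript that spans both genes, cannot be assigned to either gene. Calls for *atpB*, *psbC* and *rpl22* did not hold when each gene was averaged with its whole partner, weighted by coding length. The shared bases are in capitals with 12 bases on each side, on the coding strand of the gene named first.
atpB/atpE, chloroplast:52648-52675, minus strand: taaattgaagaaATGAccttaaatcttt
psbD/psbC, chloroplast:33708-33784, plus strand: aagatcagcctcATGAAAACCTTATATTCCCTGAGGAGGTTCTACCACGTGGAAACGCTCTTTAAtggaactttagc
rps3/rpl22, chloroplast:83455-83494, minus strand: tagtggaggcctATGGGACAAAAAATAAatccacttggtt
ndhF/ycf1, chloroplast:110386-110448, minus strand for ndhF: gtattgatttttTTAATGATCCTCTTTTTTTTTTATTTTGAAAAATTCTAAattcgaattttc

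In the first 3 pairs the shared stretch opens with ATG, the annotated start codon of the downstream gene, and closes with the stop codon of the upstream gene, TGA in *atpB* and TAA in *psbD* and *rpl22*, over 4, 53 and 16 bases. The fourth pair overlaps by 39 bases on opposite strands, where the ends of *ndhF* and of the shorter copy of *ycf1* meet, so that its stretch opens with TTA, the stop codon of *ycf1* read backwards, and closes with TAA, that of *ndhF*. A further 7 pairs of members are the 2 copies of genes in the inverted repeat of the plastid genome (*ycf2*, *ycf15*, *ndhB*, *rps7*, the distal part of *rps12*, *rpl2* and *rpl23*), and in each pair the listed loci were identical over 100% of their bases. The copies nevertheless carried different values in 6 of the 7 pairs, so the value of a single copy cannot be separated from that of its twin, and sums of both are given beside them. Copies are numbered in genome order below, as in *rpl23*-1.

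Levels of the plastid-encoded genes were extremely uneven, and *psbA* and *rbcL*, known for abundant mRNAs in leaves, were not among the highest. *atpE*, the epsilon subunit of the ATP synthase, led with 5948, 6399 and 6859 FPKM in Col-0, against 7598, 4300 and 3821 FPKM in *fer-4*. *atpB*, the beta subunit that lies just upstream of it, came to 2638 ± 84.2 FPKM in Col-0 (SD, n = 3). By contrast *rbcL*, the large subunit of Rubisco, was at 13.0 ± 3.47 FPKM and *psbA*, the D1 protein of the PSII reaction centre, at 27.6 ± 6.73 FPKM in Col-0 (SD, n = 3). *psaA* and *psaB*, the PSI reaction centre proteins, were at 3.53 ± 1.01 and 4.06 ± 1.18 FPKM (SD, n = 3). Over all 6 libraries, 18 members had a mean of at least 100 FPKM, 13 lay between 10 and 100 and 35 between 0.5 and 10. Of the 18 in the highest class, 15 lie on the minus strand, beside 45 of all 66 members with a mean of at least 0.5 FPKM. Across the 66 members with a mean of at least 0.5 FPKM, Spearman's rho between the mean level and coding length was -0.263, with GC content -0.00829 and with the share of A on the coding strand 0.263. These coefficients describe 66 genes that share libraries and transcripts and were not tested.

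**Figure D1:**
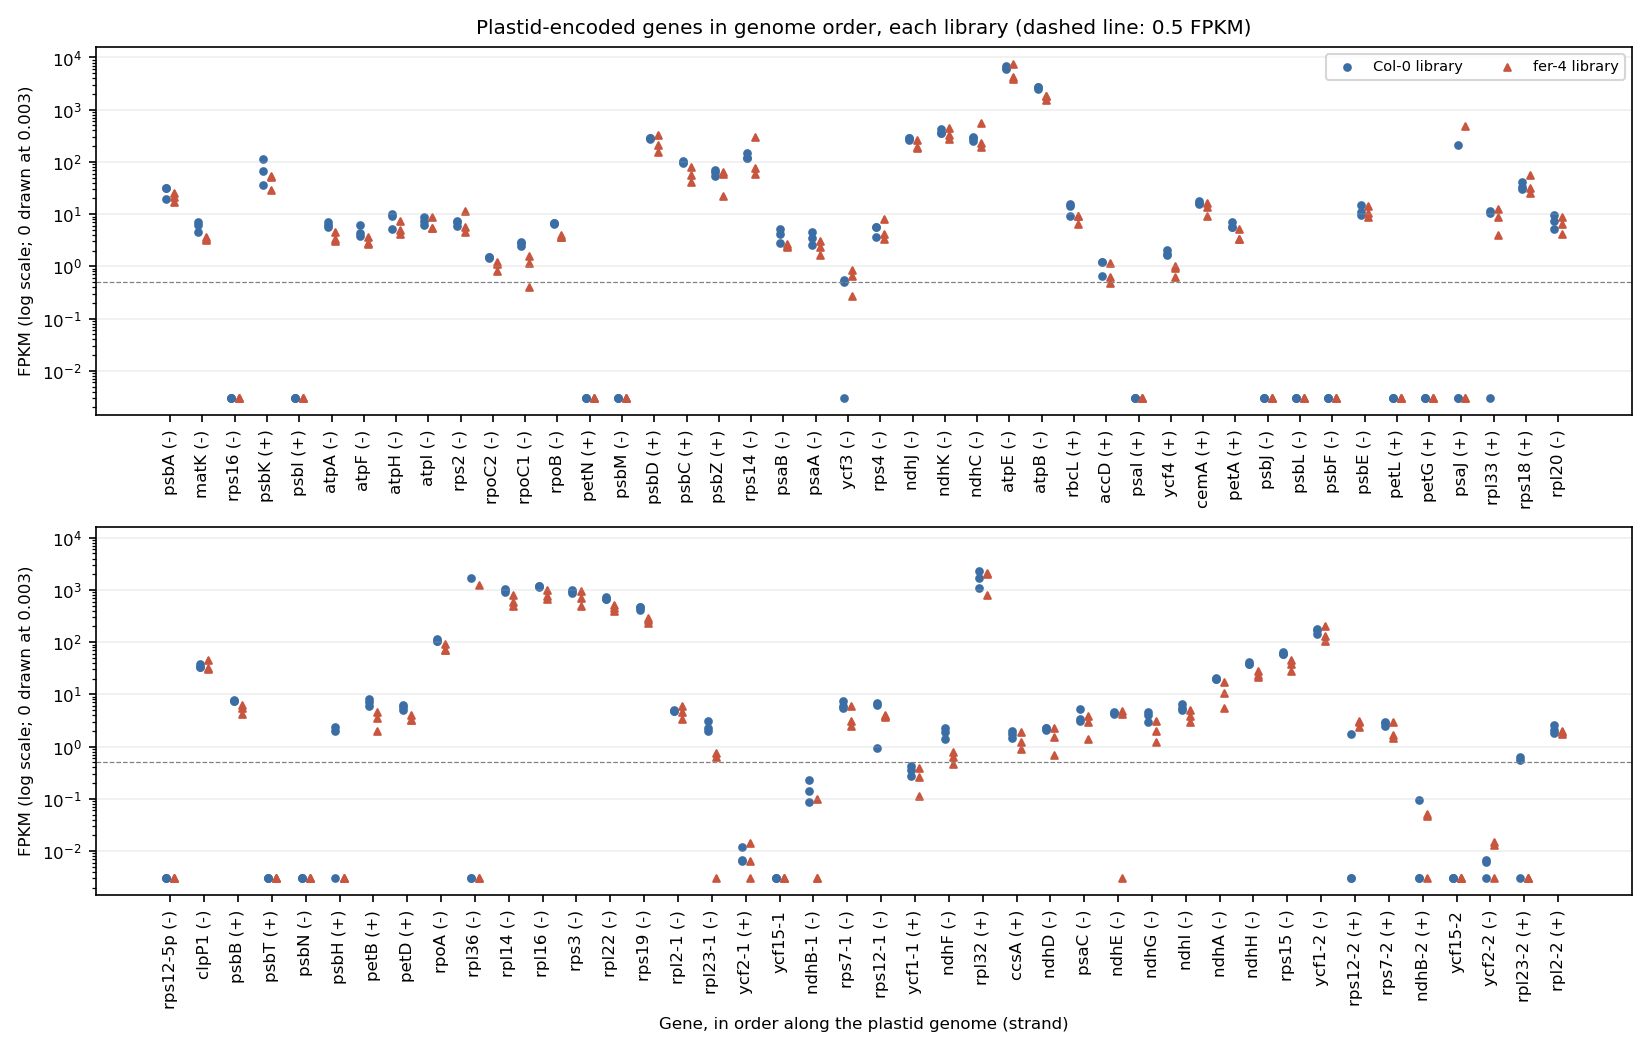
FPKM of each plastid-encoded gene reported here in each library on a log axis, in genome order with the strand after the name, Col-0 libraries as blue circles and *fer-4* libraries as red triangles. Levels run from 0 to 7598 FPKM, with high values from *rpoA* to *rps19*, at *atpE* and *atpB* and at *rpl32*, and 15 members sit at 0 in all 6 libraries.

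The members at 0 were nearly all very short. Of 14 members with a coding length no greater than that of *psaJ*, 12 were listed at 0 in every library, among them *petN*, *petL* and *petG* of the cytochrome b6f complex and 7 small PSII subunits (*psbF*, *psbI*, *psbJ*, *psbL*, *psbM*, *psbN* and *psbT*). The other 2, *psaJ* of PSI and *rpl36* of the large ribosomal subunit, were at 0 in 4 libraries each and high in the rest. *psaJ* was at 208, 0 and 0 FPKM in Col-0, against 0, 0 and 493 FPKM in *fer-4*, and *rpl36* at 0, 0 and 1677 FPKM in Col-0, against 1232, 0 and 0 FPKM in *fer-4*. The remaining members at 0 were *rps16* and both copies of *ycf15*. Outside the plastid, all 261 rows with a locus no longer than *psaJ* were at 0 in every library too, so a listed 0 in this length class is no measurement of a missing mRNA. The shortest of the class that is always at 0, the 2 that switch, and *rpl32*, the shortest member above 0 in every library, are shown from start to stop codon, both in capitals.
petN, chloroplast:28089-28178, plus strand: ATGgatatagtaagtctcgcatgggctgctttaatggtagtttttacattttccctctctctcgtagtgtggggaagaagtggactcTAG
rpl36, chloroplast:79489-79602, minus strand: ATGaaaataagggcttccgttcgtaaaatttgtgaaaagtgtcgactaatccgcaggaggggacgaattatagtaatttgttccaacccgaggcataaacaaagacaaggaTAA
psaJ, chloroplast:66929-67063, plus strand: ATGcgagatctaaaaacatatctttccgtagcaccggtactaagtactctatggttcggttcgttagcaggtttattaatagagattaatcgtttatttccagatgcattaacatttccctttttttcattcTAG
rpl32, chloroplast:113449-113607, plus strand: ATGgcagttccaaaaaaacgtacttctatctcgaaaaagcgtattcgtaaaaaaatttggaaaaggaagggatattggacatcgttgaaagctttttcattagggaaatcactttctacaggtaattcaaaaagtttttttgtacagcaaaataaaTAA

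*rpl32*, at 159 bases of coding length, was at 1686, 2276 and 1097 FPKM in Col-0, against 2002, 2113 and 788 FPKM in *fer-4*. Its groups overlapped, and it did not differ between the genotypes beyond that spread (log2 fold change -0.11, standard error 0.41). *psaJ* and *rpl36* passed the filter on low values through a single library of each genotype, and no weight is placed on their fold changes. Both remain in the counts, sums and medians below unless stated otherwise.

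Summed over all 88 members, plastid-encoded mRNA took 1.78%, 1.92% and 1.97% of the FPKM total in Col-0, against 1.78%, 1.48% and 1.13% in *fer-4*. The sums were 17377, 18466 and 19722 FPKM in Col-0, against 18802, 13521 and 10828 FPKM in *fer-4*, a mean of 18522 ± 1173 against 14383 ± 4057 FPKM (SD, n = 3) and a log2 ratio of -0.36. The groups overlapped through *fer-4* replicate 1, and the log2 ratio was -0.61 without that library and -0.20 without *fer-4* replicate 3. *atpE* alone made up 34.2% to 34.8% of the plastid sum in Col-0, against 31.8% to 40.4% in *fer-4*. Without *atpE* the log2 ratio of the sums was -0.41. Without *atpE*, *psaJ*, *rpl36* and *rpl32* the sums were 9535, 9791 and 10089 FPKM in Col-0, against 7970, 7107 and 5726 FPKM in *fer-4*, and the groups did not overlap. Neither of these exclusions was planned before the values were seen. Among the *fer-4* libraries, *atpE* and *rpl36* were highest in replicate 1, *rpl32* in replicate 2 and *psaJ* in replicate 3. The 26 ribosomal protein genes held 39.2% to 40.7% of the plastid sum in Col-0, the ATP synthase 48.6% to 49.3%, PSII 3.03% to 3.05% and the cytochrome b6f complex at most 0.105%. NDH genes held 5.45% to 5.56% in Col-0, against 6.46% to 6.54% in *fer-4*, a higher share in every mutant library although their own sums overlapped. Of a mean NDH sum of 1019 FPKM in Col-0, *ndhC*, *ndhK* and *ndhJ* held 280, 383 and 278 FPKM. The share thus follows these genes, and the median log2 fold change of the 10 tested NDH genes was -0.68 (*fer-4* over Col-0). In whole seedlings, fewer chloroplasts or green cells and less RNA per chloroplast cannot be told apart. How the RNA was selected is not given, so these sums need not reflect the amount of plastid mRNA.

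**Figure D2:**
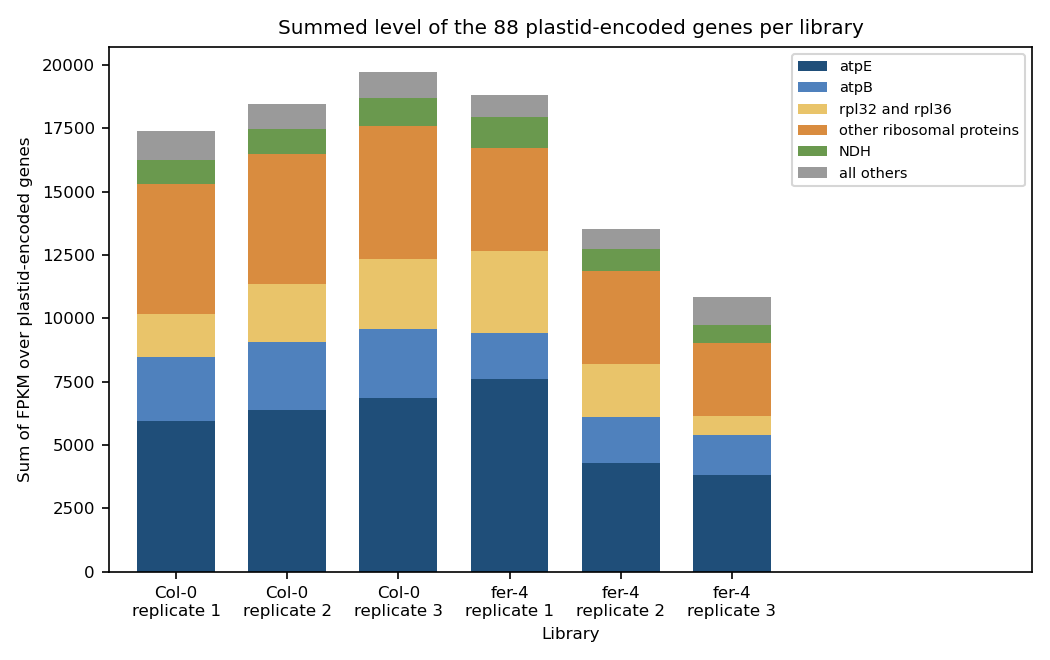
Sum of FPKM over the 88 plastid-encoded genes in each library as stacked bars from 0, split into *atpE*, *atpB*, *rpl32* with *rpl36*, other ribosomal proteins, NDH and all others. The *fer-4* libraries range from 10828 to 18802 FPKM against 17377 to 19722 FPKM in Col-0, and *atpE* is the largest piece of every bar.

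In the *fer-4* mutant most plastid-encoded genes had lower levels, with log2 fold changes below 0 for 59 of the 66 members tested (89.4%, against 51.0% of all genes tested). The median was below 0 in every functional group, although those of the ribosomal large subunit and of *ycf1*-2, the only open reading frame tested, turned positive when libraries were scaled to the plastid sum. The comparison asks how the loss of *FER* changed the mRNA of chloroplast genes under the growth light. Of the 66 members, 24 fell, 1 rose and 41 did not pass, at an adjusted p under 0.05 from limma on log2(FPKM + 0.1) with Benjamini-Hochberg adjustment over all 19839 genes tested. Among all genes tested, 16.0% fell and 18.0% rose, so 36.4% of the tested members fell against 16.0% of all genes. The median log2 fold change (*fer-4* over Col-0, here and below) of the members was -0.54, against -0.01 for all genes tested. The 3 *fer-4* libraries all lay below the 3 Col-0 libraries for 26 members and all above for 1, against 25.1% and 26.1% of all genes tested. Under the stricter thresholds (adjusted p no higher than 0.01, 2-fold or more), *ndhF* and *ycf4* were lower and 0 members were higher, against 2.53% and 6.36% of all genes, with 1 member higher at an unadjusted p under 0.05 in limma.

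The calls depended on the scale and on single libraries. Log2 fold changes of the 24 members that fell ran from -2.66 to -0.49. When the 6 libraries were scaled to the same plastid sum, so that a member was compared with all members together, the median of all genes moved to 0.39 and that of the members to -0.15, and 5 members fell and 3 rose of 67 tested. Over all genes, that scaling turned 3569 higher and 3170 lower calls into 4012 and 449, and quantile normalization into 3064 and 4203. Leaving out 1 library at a time gave 11 to 31 fallen members. The lowest count came without Col-0 replicate 2, where 10.4% of all genes fell, and the highest without *fer-4* replicate 1, where 18.7% fell. In all 6 fits with a library left out, 10 of the 24 passed, among them *rpoB*, *rps19*, *ndhH*, *ndhF*, *rpl22*, *atpA*, *petD*, *matK* and *ycf4*. Scaled to the plastid sum, however, 21 of the 24 lost the call, and of the genes just named only *ndhF* kept it. Combining overlapping genes and repeat copies, an alternative chosen after the data were seen, gave 22 fallen and 0 risen of 60 loci.

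**Figure D3:**
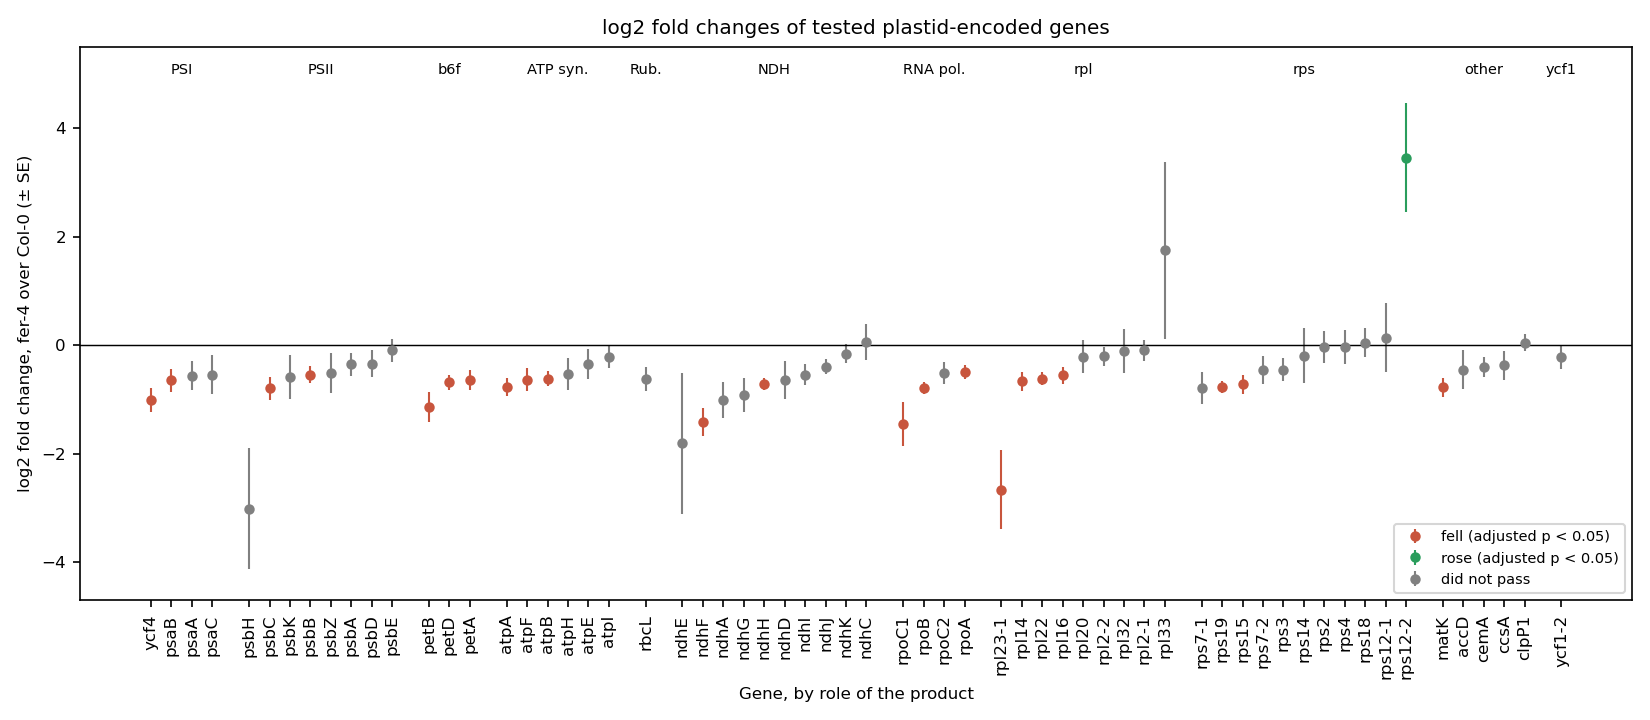
log2 fold change (*fer-4* over Col-0) with its standard error for tested plastid-encoded genes, grouped by the role of the product and ordered within a group. Red points fell, the single green point (*rps12*-2) rose, and grey points did not pass an adjusted p under 0.05. *psaJ*, *rpl36* and members not reported here are not drawn.

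The genes of the plastid-encoded RNA polymerase were lower in *fer-4* throughout, with 3 of 4 fallen. *rpoB*, the beta subunit (23111 to 26329, minus strand), was at 6.64, 6.65 and 6.47 FPKM in Col-0, against 3.64, 4.03 and 3.65 FPKM in *fer-4*, or -0.79 as log2 fold change (standard error 0.11, adjusted p = 0.00091). This was the lowest adjusted p among the members, with no overlap and an SD within Col-0 of 0.0993 FPKM (n = 3). *rpoC1*, the next subunit on the same transcript, was at 2.81, 2.43 and 2.90 FPKM in Col-0, against 0.408, 1.58 and 1.15 FPKM in *fer-4* (log2 fold change -1.46, standard error 0.40, adjusted p = 0.024). Its call was lost without Col-0 replicate 1, 2 or 3, at adjusted p of 0.074, 0.055 and 0.074. *rpoA*, the alpha subunit, is far away in the ribosomal protein cluster and was the most abundant of the 4, at 109 ± 4.28 FPKM in Col-0, against 77.8 ± 13.9 FPKM in *fer-4* (SD, n = 3, log2 fold change -0.49, adjusted p = 0.017). This call was lost in 4 of the 6 fits with a library left out, those without Col-0 replicate 1, 2 or 3 or *fer-4* replicate 3 (adjusted p of 0.052 to 0.065). *rpoC2*, the least abundant, was at 1.5 ± 0.0396 and 1.03 ± 0.207 FPKM (SD, n = 3) and did not pass (adjusted p = 0.085), although its groups did not overlap, and it passed without *fer-4* replicate 1 (adjusted p = 0.043).

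Genes that in tobacco are read mainly by the nuclear-encoded polymerase are 8 rows here, *accD*, *rpoB*, *rpoC1*, *rpoC2* and the copies of *ycf1* and *ycf2*. Of the 5 tested, 2 fell, with a median log2 fold change of -0.52, beside -0.54 for the 61 other members tested, of which 22 fell. *accD*, the plastid-encoded subunit of acetyl-CoA carboxylase for fatty acid synthesis, was at 0.658, 1.23 and 1.2 FPKM in Col-0, against 1.15, 0.477 and 0.615 FPKM in *fer-4*, and did not pass. The long copy of *ycf1*, *ycf1*-2, which encodes a protein of the inner envelope, was at 146, 173 and 176 FPKM in Col-0, against 203, 133 and 104 FPKM in *fer-4*, with overlapping groups. Its log2 fold change was -0.22 (adjusted p = 0.47), and -0.48 without *fer-4* replicate 1 (adjusted p = 0.029). *ycf2*, the longest plastid gene at 6885 bases, was hardly measured, with sums of both copies between 0.00649 and 0.0195 FPKM in the 6 libraries. The short *ycf1*-1 was at 0.349 ± 0.0756 FPKM in Col-0, against 0.255 ± 0.136 FPKM in *fer-4* (SD, n = 3) and was not tested.

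All 3 measured genes of the cytochrome b6f complex, which passes electrons from PSII to PSI, fell. *petB*, cytochrome b6, was at 6.12, 7.27 and 8.18 FPKM in Col-0, against 1.97, 4.71 and 3.48 FPKM in *fer-4* (log2 fold change -1.14, standard error 0.28, adjusted p = 0.016). *petD*, subunit IV, on the same transcript, was at 6.18, 5.02 and 5.84 FPKM and 3.29, 3.99 and 3.21 FPKM (log2 fold change -0.69, standard error 0.14, adjusted p = 0.0066). *petA*, cytochrome f, lies elsewhere and was at 6.19 ± 0.753 FPKM in Col-0, against 3.99 ± 1.08 FPKM in *fer-4* (SD, n = 3, log2 fold change -0.64, adjusted p = 0.032). In none of the 3 did the groups overlap. The call for *petB* was lost without Col-0 replicate 2 or 3 (adjusted p = 0.051 and 0.060), and that for *petA* held only without *fer-4* replicate 2, with adjusted p of 0.065 to 0.12 in the other 5 fits.

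Of the ATP synthase genes, 3 of 6 fell. *atpA*, the alpha subunit of the catalytic head, was at 5.67, 6.11 and 6.97 FPKM in Col-0, against 3.41, 4.46 and 3.09 FPKM in *fer-4* (log2 fold change -0.77, standard error 0.16, adjusted p = 0.0075). *atpF*, of the membrane part, was at 4.83 ± 1.31 and 3.04 ± 0.566 FPKM (SD, n = 3, log2 fold change -0.64, adjusted p = 0.048), a call lost without Col-0 replicates 2 or 3 or *fer-4* replicates 1 or 2, with adjusted p of 0.086 to 0.15. *atpB* fell from 2542, 2673 and 2699 FPKM to 1818, 1797 and 1554 FPKM (log2 fold change -0.62, standard error 0.14, adjusted p = 0.010). *atpE*, which overlaps *atpB*, did not pass (log2 fold change -0.35, adjusted p = 0.36), and its *fer-4* values spanned the Col-0 range. Without *fer-4* replicate 1 it fell, by 0.66 on the log2 scale (adjusted p = 0.010). Because of the overlap the pair was also taken as 1 locus weighted by coding length, which was at 3430 ± 160 FPKM in Col-0, against 2463 ± 516 FPKM in *fer-4* (SD, n = 3) and did not pass (log2 fold change -0.50, adjusted p = 0.072). Without Col-0 replicate 1, 2 or 3 the call for *atpB* was lost as well, at adjusted p of 0.053 to 0.057.

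In PSII, whose reaction centre splits water, 2 of 8 tested genes fell. *psbB*, the core antenna protein CP47, was at 7.58, 7.98 and 7.56 FPKM in Col-0, against 6.31, 5.42 and 4.25 FPKM in *fer-4* (log2 fold change -0.54, standard error 0.15, adjusted p = 0.024). *psbC*, the core antenna protein CP43, was at 99.9, 104 and 94.5 FPKM and 41.3, 80.7 and 55.7 FPKM (log2 fold change -0.80, standard error 0.21, adjusted p = 0.020). *psbD*, the D2 reaction centre protein that overlaps *psbC*, was at 284, 283 and 270 FPKM in Col-0, against 332, 212 and 152 FPKM in *fer-4* and did not pass (log2 fold change -0.34, adjusted p = 0.31), but fell by 0.64 on the log2 scale without *fer-4* replicate 1 (adjusted p = 0.014). As 1 locus the pair was at 176 ± 5.84 and 133 ± 34.4 FPKM (SD, n = 3) and did not pass (adjusted p = 0.090). *psbA* was at 19.8, 31.5 and 31.5 FPKM in Col-0, against 17.1, 21.3 and 25.8 FPKM in *fer-4*, with overlapping groups (log2 fold change -0.36, standard error 0.21, adjusted p = 0.23). *psbH*, a small subunit, was at 2.42, 1.99 and 0 FPKM in Col-0 but listed at 0 in all *fer-4* libraries, and did not pass. The call for *psbB* was lost without Col-0 replicate 1, 2 or 3 (adjusted p of 0.067 to 0.084), and that for *psbC* without Col-0 replicate 1 or 2 or *fer-4* replicate 3 (0.058 to 0.065).

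In PSI, 2 of 5 tested genes fell. The larger change was that of *ycf4*, an assembly factor of PSI (59772 to 60326, plus strand), which was at 1.65, 2.04 and 1.75 FPKM in Col-0, against 0.940, 1.00 and 0.633 FPKM in *fer-4* (log2 fold change -1.02, standard error 0.22, adjusted p = 0.0091). *psaB* was at 2.84, 5.20 and 4.14 FPKM in Col-0, against 2.31, 2.46 and 2.68 FPKM in *fer-4* (log2 fold change -0.65, standard error 0.21, adjusted p = 0.047), and passed in only 1 of the 6 fits with a library left out, that without Col-0 replicate 1, with adjusted p of 0.077 to 0.16 in the other 5. *psaA*, its partner on the same transcript, was at 2.51, 4.54 and 3.55 FPKM and 1.66, 3.08 and 2.35 FPKM, with overlapping groups (adjusted p = 0.15). Col-0 replicate 1 was the lowest Col-0 library for *psaA*, *psaB*, *psbA* and *rbcL* alike. For *rbcL* the values were 9.09, 15.7 and 14.2 FPKM in Col-0, against 6.57, 9.02 and 9.27 FPKM in *fer-4* (log2 fold change -0.62, standard error 0.22, adjusted p = 0.059), which overlapped only through that library, and it fell without it (adjusted p = 0.013).

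The NDH complex, which returns electrons from PSI to the plastoquinone pool, held the gene with the lowest adjusted p of the photosynthetic groups, *ndhH*, beside 8 tested members that did not pass. *ndhH* was at 38.1, 38.9 and 42.1 FPKM in Col-0, against 21.3, 28.1 and 23.3 FPKM in *fer-4* (log2 fold change -0.72, standard error 0.11, adjusted p = 0.0020). *ndhF* (110398 to 112638, minus strand) was at 1.38, 1.90 and 2.24 FPKM and 0.774, 0.624 and 0.474 FPKM (log2 fold change -1.42, standard error 0.26, adjusted p = 0.0040), a ratio of the group means of 0.339. Merging it with the overlapping *ycf1*-1 left it called (log2 fold change -1.26, adjusted p = 0.0062). The other 8 tested members did not pass, with log2 fold changes of -1.81 to 0.06. The value of -1.81 was that of *ndhE* and rests on a listed 0 in *fer-4* replicate 1. *ndhE* was at 4.65, 4.16 and 4.33 FPKM in Col-0, against 0, 4.16 and 4.82 FPKM in *fer-4*, with overlapping groups. *ndhA* came nearest to passing, at 20.2 ± 0.743 FPKM in Col-0, against 11.1 ± 5.82 FPKM in *fer-4* (SD, n = 3, adjusted p = 0.050), with no overlap. *ndhK*, the most abundant, was at 363, 365 and 420 FPKM and 452, 322 and 275 FPKM (log2 fold change -0.16, adjusted p = 0.52), and fell by 0.36 on the log2 scale without *fer-4* replicate 1 (adjusted p = 0.038). Without *fer-4* replicate 2, *ndhA*, *ndhD*, *ndhG*, *ndhI* and *ndhJ* fell (adjusted p of 0.0062 to 0.049). Both copies of *ndhB* were at no more than 0.231 FPKM in any library and were not tested.

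Ribosomal protein genes, which serve the translation of all plastid mRNAs, came next to the ATP synthase in summed level. Of 10 tested genes of the large subunit 4 fell, and of 13 of the small subunit 4 fell and 1 rose, with medians of -0.21 and -0.45 on the log2 scale. The median of the large subunit turned to 0.03 when libraries were scaled to the plastid sum. *rps19* was at 462, 418 and 470 FPKM in Col-0, against 296, 261 and 235 FPKM in *fer-4* (log2 fold change -0.77, standard error 0.11, adjusted p = 0.0014). *rpl22* was at 674, 672 and 726 FPKM and 507, 450 and 399 FPKM (log2 fold change -0.62, standard error 0.12, adjusted p = 0.0051), but as 1 locus with the overlapping *rps3*, which did not pass, the log2 fold change was -0.50 (adjusted p = 0.061). *rpl14*, *rpl16* and *rps15* also fell, by 0.66, 0.55 and 0.73 on the log2 scale, each losing the call in 1 to 5 of the fits with a library left out.

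Values of single repeat copies were low, and zeros among them make the fitted fold changes of *rpl23*-1 and *rps12*-2 depend on the added 0.1 FPKM. *rpl23*-1 was at 3.12, 2.23 and 2.03 FPKM in Col-0, against 0, 0.634 and 0.753 FPKM in *fer-4* and fell (log2 fold change -2.66, standard error 0.74, adjusted p = 0.025), a call lost without Col-0 replicate 1, 2 or 3 (0.058 to 0.082). With 0.01 FPKM added instead, its log2 fold change was -3.83 and the call was lost (adjusted p = 0.079), and with 1 FPKM it was -1.27 (adjusted p = 0.0034). The sum of both *rpl23* copies was at 3.74, 2.78 and 2.03 FPKM and 0, 0.634 and 0.753 FPKM, again without overlap (adjusted p = 0.020). The sum of both *rps7* copies fell (log2 fold change -0.64, adjusted p = 0.045), although neither copy passed alone. *rps12*-2, the only member that rose, was at 0, 1.74 and 0 FPKM in Col-0, against 2.95, 3.06 and 2.43 FPKM in *fer-4* (log2 fold change 3.46, standard error 1.01, adjusted p = 0.030), but its identical twin *rps12*-1 was at 0.952, 6.96 and 6.28 FPKM and 3.93, 4.09 and 3.64 FPKM. Their sum was at 0.952, 8.69 and 6.28 FPKM in Col-0, against 6.88, 7.15 and 6.07 FPKM in *fer-4*, with overlapping groups, and did not pass (adjusted p = 0.40). The call for *rps12*-2 held only without Col-0 replicate 2, with adjusted p of 0.069 to 0.099 in the other 5 fits.

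Of the 5 remaining genes, *matK*, the maturase that helps splice plastid introns, fell from 4.57, 6.07 and 7.09 FPKM to 3.59, 3.27 and 3.20 FPKM (log2 fold change -0.78, standard error 0.17, adjusted p = 0.0090). *clpP1*, the catalytic subunit of the Clp protease, was at 33.8, 38.1 and 32.8 FPKM in Col-0, against 46.6, 30.8 and 32.5 FPKM in *fer-4*, with a log2 fold change of 0.05 (standard error 0.16). That value turned negative under quantile normalization and without *fer-4* replicate 1. *cemA*, an envelope membrane protein, and *ccsA*, which acts in attaching haem to c-type cytochromes, had log2 fold changes of -0.40 and -0.37 and did not pass.

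Because neighbouring plastid genes share transcripts, levels were followed along runs of genes on 1 strand, chosen after the data were seen and described without a test. From *rpl23*-1 to *rpl14*, in the direction of transcription, Col-0 means were 2.46 FPKM at *rpl23*-1 and 4.90 at *rpl2*-1, then 450 at *rps19*, 691 at *rpl22*, 945 at *rps3*, 1169 at *rpl16* and 983 at *rpl14*, and *rpoA*, further along, was at 109 FPKM. The sums of both copies were 2.85 FPKM for *rpl23* and 7.06 FPKM for *rpl2*, and the level was highest at *rpl16*. From *ycf1*-2 to *ndhD*, Col-0 means declined, but for a step up at *ndhE*, from 165 to 60.9 FPKM at *rps15*, 39.7 at *ndhH*, 20.2 at *ndhA*, 5.67 at *ndhI*, 3.89 at *ndhG*, 4.38 at *ndhE*, 3.89 at *psaC* and 2.19 at *ndhD*. *psaC*, the subunit of PSI that binds iron-sulphur clusters, lay near the low end of its run. Levels rose instead along the unit of the PSI reaction centre genes, with *psaA* and *psaB* at 3.53 and 4.06 FPKM and *rps14* behind them at 127 FPKM in Col-0.

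The *fer-4* libraries followed these profiles, but *fer-4* replicate 1 ran across the other 2. Of the 66 tested members, 16 were at least 1.5 times higher in it than the mean of *fer-4* replicates 2 and 3, and 16 at least 1.5 times lower. The numbers for *fer-4* replicates 2 and 3 against their group mates were 22 and 24 in both directions together, and for the Col-0 libraries 16, 9 and 9. The ratio of *fer-4* replicate 1 to the mean of the other 2 declined along some runs, from 2.56 at *ndhC* to 1.52 at *ndhK* and 0.886 at *ndhJ*, and from 1.82 at *psbD* to 0.606 at *psbC* and 0.353 at *psbZ*. From *ycf1*-2 to *ndhD* it went from 1.71 to 1.40 at *rps15*, 0.830 at *ndhH* and 0.400 at *ndhA*, rose to 0.981 at *ndhI*, and ended at 0.373 at *ndhD*, with *ndhE* listed at 0 in that library. It rose along others, from 0.611 at *psaA* to 0.902 at *psaB* and 4.33 at *rps14*, and from 1.09 at *atpB* to 1.87 at *atpE*, and went from 0.950 at *rpoB* to 0.299 at *rpoC1* and 1.27 at *rpoC2*. *rps14* was at 294 FPKM in it and at 59.4 and 76.7 FPKM in the other *fer-4* libraries, against 147, 117 and 117 FPKM in Col-0. Without *fer-4* replicate 1, 31 members fell and 0 rose, against 18.7% and 19.9% of all genes. Of the 31, 21 were among the 24, and the median log2 fold change of the members was -0.59. The 10 gained there were *atpE*, *psbD*, *ycf1*-2, *ndhC*, *ndhK*, *rpoC2*, *rps3*, *rps14*, *rps7*-1 and *cemA*, at adjusted p of 0.0038 to 0.043.

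**Figure D4:**
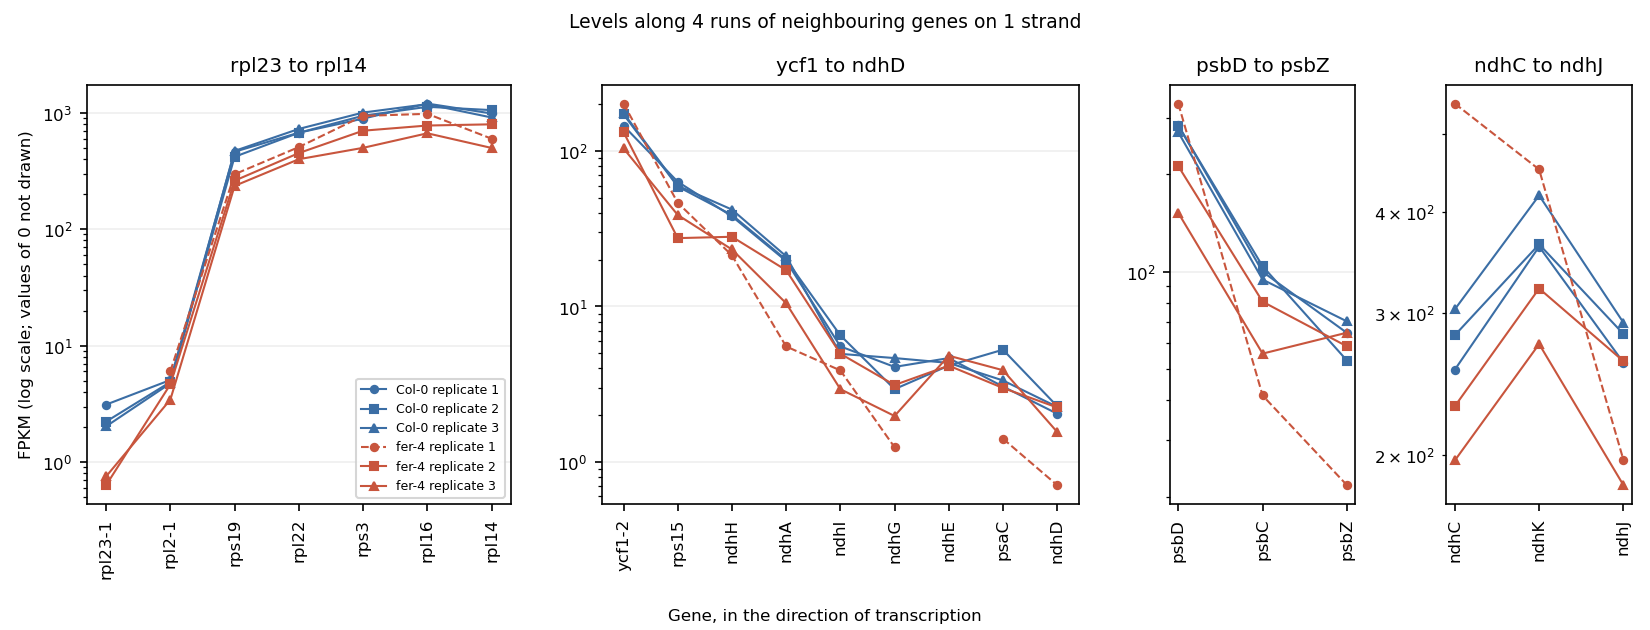
FPKM on a log axis (its range set for each panel) along 4 runs of neighbouring genes in the direction of transcription, with 1 line per library, Col-0 in blue and *fer-4* in red, and *fer-4* replicate 1 dashed. Levels climb from *rpl2*-1 to *rps19* and decline from *ycf1*-2 to *ndhD* in all 6 libraries, and the dashed line crosses at least 1 of the other *fer-4* lines in every panel.

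The nuclear-encoded partners of these complexes were lower in *fer-4* as well. The list held 45 nuclear genes for subunits of PSI, PSII, the cytochrome b6f complex, the ATP synthase, Rubisco and the NDH complex. Of these, 39 fell and 0 rose, against 16.0% and 18.0% of all genes tested, and their median log2 fold change was -0.61. Without Col-0 replicate 1 or 3, 23 fell, and without Col-0 replicate 2, 25 fell, against 9.77% to 10.4% of all genes. By complex, the plastid and nuclear medians were -0.56 and -0.62 for PSI, -0.53 and -0.61 for PSII, -0.69 and -1.23 for cytochrome b6f, -0.58 and -0.45 for the ATP synthase, -0.62 and -0.59 for Rubisco and -0.68 and -0.61 for NDH, and differences between them were not tested. All 14 nuclear NDH genes fell, beside 2 of 10 tested plastid ones. *PETM*, a small subunit of the cytochrome b6f complex, was at 1283, 1158 and 1361 FPKM in Col-0, against 477, 405 and 358 FPKM in *fer-4* (log2 fold change -1.62, adjusted p = 7.2e-05). *PSAN* and *PSAF* of PSI had log2 fold changes of -1.48 and -1.36 (adjusted p = 0.00021 and 0.00067). *PSBTN* of PSII and *PSAD2* of PSI followed with -1.12 and -1.04.

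**Figure D5:**
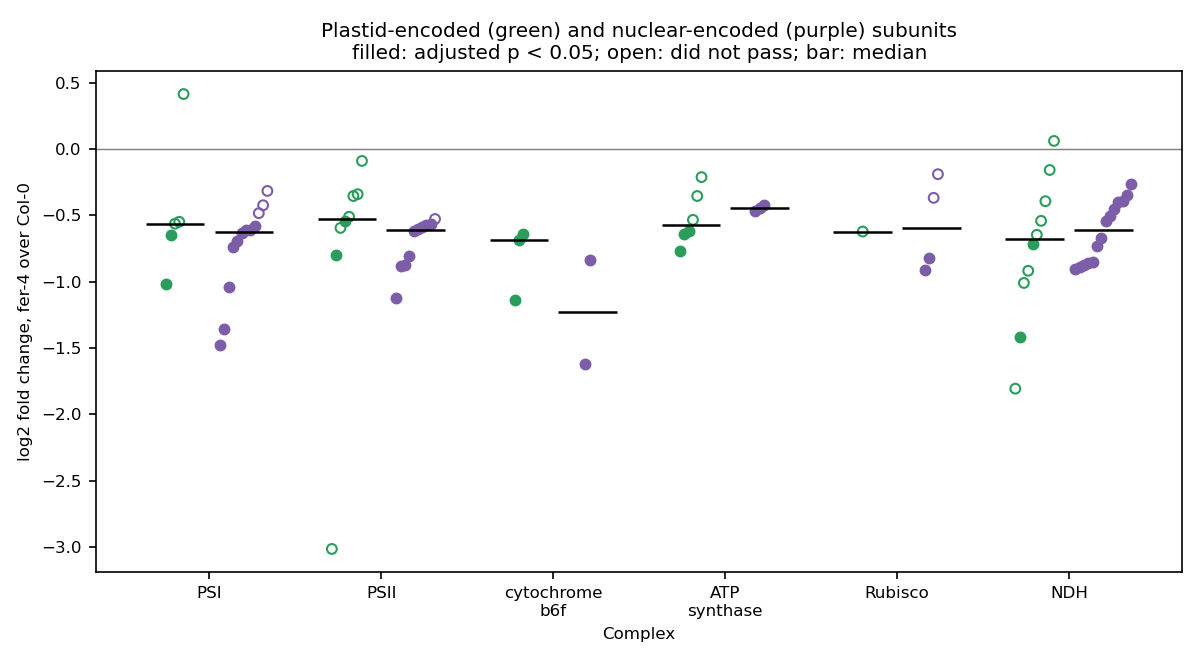
log2 fold change (*fer-4* over Col-0) of plastid-encoded (green) and nuclear-encoded (purple) subunits of 6 complexes, with medians as bars, filled where the adjusted p was under 0.05 and open where it was not. Both sets lie below 0 in every complex except for *psaJ* and *ndhC*, which did not pass.

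Among 35 nuclear regulators of plastid gene expression, 18 fell and 0 rose, against 16.0% and 18.0% of all genes tested. Their median log2 fold change was -0.39. *SIG1*, a sigma factor that directs the plastid-encoded polymerase to promoters, was at 98.7, 107 and 104 FPKM in Col-0, against 44.4, 53.9 and 42.3 FPKM in *fer-4* (log2 fold change -1.14, standard error 0.11, adjusted p = 0.00012). *CSP41a* and *CSP41b*, RNA-binding proteins of the chloroplast, fell by 0.88 and 0.84 on the log2 scale (adjusted p = 0.00025 and 0.00097), and *HCF145* and *PGR3*, which act on particular plastid transcripts, by 0.88 and 0.82 (adjusted p = 0.00023 and 0.0080). The genes of the phage-type polymerases, *RPOTp* and *RPOTmp*, did not pass, with log2 fold changes of -0.19 and 0.39. When libraries were scaled to the plastid sum, 1 of the 35 regulators and 9 of the 45 subunits fell, against 2.26% of all genes.

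Other measures moved with the genotype in the same libraries. Of 5 markers of photosynthetic tissue all had log2 fold changes below 0 and 2 fell, *RCA* and *LHCA1*, and their summed level was 38490 to 41260 FPKM in Col-0, against 27560 to 33310 FPKM in *fer-4*. Of 8 root markers 6 fell and 2 rose, and their sum, mostly *PYK10*, was 2161 to 2400 FPKM in Col-0, against 3650 to 3788 FPKM in *fer-4*, with 0 markers at 0 in all libraries. Of 7 markers of leaf development and stomata 2 fell and 1 rose, at sums of 105 to 116 and 92.1 to 97.3 FPKM. Genes of the mitochondrial genome, the other organelle, had 3 of 28 tested risen and 0 fallen, against 18.0% and 16.0% of all genes, with a median log2 fold change of 0.39 and sums of 63.3 to 75.9 FPKM in Col-0, against 79.5 to 119 FPKM in *fer-4*. Relative depth, read from the step between low values, was 0.95 to 1.09 in Col-0, against 0.87 to 1.01 in *fer-4*, with the lowest value and the lowest plastid sum both in *fer-4* replicate 3. The part of these measures in the lower plastid levels was not tested.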

How the data were processed

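The authors deposited FPKM for each gene in each library, which the submitters' processing notes trace to STAR 2.5 and Cufflinks 2.2.1. The study's methods name the TAIR10 genome. The labels name a directional kit, while the strand setting and the treatment of reads that map to several places are not given in the sources used here. Read counts were not used here and depth is unknown, so only a relative depth was read from low values, and no counting interval is given. Columns of the authors' own comparison (fold change, p-value, q-value) were not used.

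Samples were grouped by genotype as their titles give it. Genes averaging 0.5 FPKM or more across 6 libraries (19839 of 27372, 66 of 88 members) were tested on log2(FPKM + 0.1) with limma 3.58.1 in R 4.3.3 (intensity trend, 2-sided, Benjamini-Hochberg over all genes tested). The procedure was first run on simulated data with independent noise and planted changes larger than those of most members. That run does not measure its performance on changes of the size seen here. A permutation of 3 libraries against 3 cannot go below 0.1. Fold changes are on the log2(value + 0.1) scale, which understates those of low genes without zeros. Where a library is at 0, it can overstate them instead, as for *ndhE* (fitted at -1.81, with group means of 4.38 and 2.99 FPKM). The p-values measure the spread between these libraries. Alternatives were pseudocounts of 1 and 0.01, no filter and a mean of at least 5 FPKM, quantile normalization, scaling to the nuclear or plastid sum, the replicate number as a block, no intensity trend, each library left out, and shared loci combined. Members, lists and the rule for named genes (17 best-known genes, up to 4 risen and 4 fallen per role, the most and least abundant per role, and up to 5 risen and 5 fallen nuclear genes per list) were chosen with earlier results of these data known. Other genes with printed values were added after their values were seen. Some members count in the totals and are not reported here by name. Sums, ranks and plots were made in Python 3.11.15 (matplotlib 3.10.9, numpy 2.4.6, SciPy 1.17.1, pandas 2.3.3). RefSeq (TAIR10.1, plastid sequence of equal coordinates) gave positions and sequences for 86 of 88 members.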

Additional observations from a re-analysis of the deposited data

How the results depend on the processing

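Of the recomputed counts, medians and totals, 143 stayed within 1.5 times the reported count, or within the spread between replicates, and 34 did not. Scaling to the plastid sum gave 5 members fallen, 3 risen and 2 higher at the stricter thresholds, a median of -0.15, 449 genes fallen in all, 1 regulator and 9 nuclear subunits fallen. Members lower at the stricter thresholds, 2 as reported, numbered 1 with a pseudocount of 1 or 0.01 or scaling to the nuclear sum, and 0 with a mean of at least 5 FPKM, where 0 members rose. Combined loci gave 0 risen members. Leaving out 1 library gave 11 to 31 fallen and 0 to 1 risen members, 0 to 4 lower and 0 to 1 higher at the stricter thresholds, 1938 to 3708 genes fallen in all, 0 to 2 regulators risen and 23 to 43 nuclear subunits fallen. The log2 fold change changed sign under scaling to the plastid sum for *atpE* (0.0457), *ndhK* (0.24), *psbA* (0.0442), *psbD* (0.0590), *ycf1*-2 (0.18) and *rpl32* (0.29), and under quantile normalization for *atpE* (0.0399), *clpP1* (-0.0585) and *rpl32* (0.0014). With 1 library left out it took both signs for *psaJ* (-3.67 to 4.09), *clpP1* (-0.14 to 0.16) and *rpl32* (-0.39 to 0.35). The cause was not tested. Depth is unknown, and FPKM of the shortest genes is not interpretable here.

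With the replicate number as a block, 30 members fell, 1 rose and 1 was lower at the stricter thresholds. Same-numbered libraries did not deviate together (correlations of -0.044, 0.043 and -0.066). So few correlations cannot show whether same-numbered libraries shared a growth or batch, and the labels do not say.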
